A study of Mus musculus with 7 samples.

Results

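The most distant joins of the mouse Igh heavy chain locus are described here: those that link the JH4 coding end to V segments lying over 2.1 Mb upstream of VH81X, a VH5 family segment near the D segments. They came from high-throughput genome-wide translocation sequencing (HTGTS), in which the sequence attached to a chosen bait end is read. Members were chosen by position and strand alone. Every line of the deposited junction lists on chromosome 12, strand 1, with its junction between 116936378 and 117838107 was taken, in the coordinates of the files (mm9, per the submitters' processing notes). Positions with gaps of at most 300 bp, pooled over the 7 libraries, were joined into segments of at least 10 lines. This gave 33 of the 158 V segments of the series and 9560 of its 95203 V lines, where 1 line is 1 sequenced read and V lines are all strand 1 lines from 114830800 to 117838107. Of these, 9499 lines lay in the 33 segments and 61 in 22 smaller groups of positions, the largest with 8 lines.

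Bone marrow of 129SVE mice aged 4 to 6 weeks was the source, and the libraries were made from DNA of its B220+CD43highIgM- fraction, labelled as pro-B cells. The files hold DNA joins and no expression, so this label could not be checked against marker genes. There were 4 VH81X-CBEscr/scr libraries and 3 WT libraries. CBE stands for CTCF-binding element in the series title, and the genotype is read as a scrambled element beside VH81X on both alleles, which the labels do not spell out. Nothing in the labels ties each library to a mouse of its own, so the p-values cover the spread among libraries only, which may be technical. VH81X itself took 0.181% ± 0.140 of V lines in VH81X-CBEscr/scr (SD, n = 4), against 9.42% ± 0.622 in WT (SD, n = 3). The libraries held 31986 to 46915 lines in all and 10961 to 16874 V lines, of which 1116 to 1592 lay in the distant region. A count of 0 in a library allowed a share of V lines of up to 0.0178% to 0.0274% (3 counts, counting error only). Read names place VH81X-CBEscr/scr 1 and 2, VH81X-CBEscr/scr 3 and 4, WT 1, and WT 2 and 3 on 4 sequencing runs. No run held both genotypes, so run and genotype cannot be told apart in any comparison of genotypes.

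In a developing B cell the RAG endonuclease first joins a D to a JH segment and then a V to the DJ join. The distant end of the locus holds mainly the large VH1 (J558) family, among which segments of the VH8 family are scattered. In pro-B cells contraction of the locus is known to bring these distant segments near the DJ join, and they are so far from the recombination centre that they are classed as distal V segments. Each V segment ends with framework 3, whose last conserved residue is a cysteine, and the junction that follows is the third complementarity-determining region (CDR3). A join codes for a heavy chain only if this cysteine and the conserved tryptophan of JH4 are in the same frame.

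The sequences below were read from the lines themselves, since no genome of the build was used. Each is the 80 bases of the coding strand, 5′ to 3′, that end with the cysteine codon of the V segment, and capitals mark bases that the files list as mismatched to their own reference at that segment. Identical 80-base strings are called 1 sequence type, numbered by their lines in the region. The first set shows the types that lead the most used segment, Ighv1-67 (chr12:117232368-117232391, the range of its junctions), which accounted for 1495 lines:
type 2 in Ighv1-67: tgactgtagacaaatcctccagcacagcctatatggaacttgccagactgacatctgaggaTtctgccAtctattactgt
type 4 in Ighv1-67: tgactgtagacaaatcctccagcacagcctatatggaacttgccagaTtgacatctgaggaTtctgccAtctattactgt
type 13 in Ighv1-67: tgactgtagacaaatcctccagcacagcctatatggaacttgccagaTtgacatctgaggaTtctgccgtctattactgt

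Types 2 and 4 differ at 1 base, types 4 and 13 at 1 base, and types 2 and 13 at 2 bases. They made up 42.0%, 31.5% and 12.8% of the typed lines of Ighv1-67, and each was present in all 7 libraries. The next set shows the most used VH8 segment, Ighv8-12 (chr12:117276374-117276408, 1385 lines), whose family differs from VH1 over much of the same stretch: types 2 and 3 differ at 38 of the 80 bases.
type 3 in Ighv8-12: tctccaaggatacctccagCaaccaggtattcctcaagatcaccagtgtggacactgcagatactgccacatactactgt
type 6 in Ighv8-12: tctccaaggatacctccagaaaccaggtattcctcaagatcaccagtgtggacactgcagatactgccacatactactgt
type 12 in Ighv8-12: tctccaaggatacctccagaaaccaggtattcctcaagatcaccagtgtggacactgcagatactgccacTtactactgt

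The last set shows 1 type placed at several segments, which bears on how far a line can be given to its segment. Type 1 was the most frequent type of the region. It was placed 536 times at Ighv1-64 (chr12:117135973-117135998), where it had no mismatch, and 127 times at a segment outside the region (chr12:116786830-116786853), where it had 2. Type 5 was placed 227 times at Ighv1-84 (chr12:117609132-117609461) with 2 mismatches and 145 times at Ighv1-80 (chr12:117540772-117540794) with none.
type 1 in Ighv1-64: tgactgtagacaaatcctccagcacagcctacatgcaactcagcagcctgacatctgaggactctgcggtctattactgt
type 1 outside the region: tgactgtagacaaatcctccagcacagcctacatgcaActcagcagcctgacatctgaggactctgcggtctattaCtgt
type 5 in Ighv1-84: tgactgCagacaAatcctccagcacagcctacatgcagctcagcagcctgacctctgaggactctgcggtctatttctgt
type 5 in Ighv1-80: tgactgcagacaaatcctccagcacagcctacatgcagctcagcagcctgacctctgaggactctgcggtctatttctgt

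Segment names came from a RefSeq gene table of GRCm38.p6, matched by spacing. At 1 constant offset 23 of the 33 members met a V gene of the table exactly, against 2 at the best other offset, and 31 lay within 60 bp of one, the largest distance being 42 bp. No coordinate of that table is used here. By these names 27 members are VH1 segments with 7130 lines and 4 are VH8 segments with 2333 lines. Another 2, with 20 and 16 lines, have no name (chr12:117032858-117032864 and chr12:117233132-117233135). The table lists 40 V genes in this stretch, of which 31 had a segment, 4 had 1 to 8 lines and 5 (Ighv8-9, Ighv1-65, Ighv1-68, Ighv8-15 and Ighv8-16) had no line in any library. Of the 7 listed as pseudogenes 2 had a segment, Ighv1-62 with 65 lines and Ighv8-10 with 24. The names are those of the reference genes at which lines were placed, and the reference build is of another strain (C57BL/6) than the mice.

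The member nearest the lower bound is Ighv1-58 (chr12:116940598-116940605), 2104 kb from VH81X with 37 lines. Just outside lies Ighv8-8 (chr12:116922494-116922503), at 2086 kb with 55 lines. The farthest member is Ighv1-86 (chr12:117638089-117638107), at 2802 kb with 140 lines. Segments thus span 697 kb, and their lines ranged from 16 (Ighv1-72 and 1 of the unnamed segments) to 1495.

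The share of V lines that fell in the region did not differ between the genotypes beyond the spread of the libraries. The region held 9.78%, 9.56%, 10.1% and 10.1% of V lines in VH81X-CBEscr/scr 1 to 4, against 9.18%, 11.3% and 10.6% in WT 1 to 3. The 4 VH81X-CBEscr/scr libraries lay within the range of the WT libraries, which spread more widely. The means were 9.88% ± 0.263 in VH81X-CBEscr/scr (SD, n = 4) and 10.3% ± 1.07 in WT (SD, n = 3), a difference of -0.06 in log2 share (two-sided exact permutation test over all 35 assignments of the libraries, p = 0.486). The smallest p this design can give is 0.0286.

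Since VH81X lines are nearly absent from the mutant total, the share was also taken over V lines other than VH81X. It was then 9.82%, 9.57%, 10.1% and 10.1% in VH81X-CBEscr/scr 1 to 4, against 10.1%, 12.4% and 11.8% in WT 1 to 3. WT 1 lay among the VH81X-CBEscr/scr values, and WT 2 and 3 above them. The means were 9.90% ± 0.263 in VH81X-CBEscr/scr and 11.4% ± 1.21 in WT (SD, n = 4 and 3), a log2 difference of -0.20 (exact permutation p = 0.0571, or 0.571 after Benjamini-Hochberg adjustment over the 10 measures of the region that were tested). With so few libraries 1 measure alone could not pass that adjustment, even at the smallest possible p of 0.0286. The difference was -0.062 with lines not marked duplicate and -0.029 over lines matching their own segment best (exact permutation p = 0.6 and 0.829). The neighbouring V lines from 1.5 to 2.1 Mb, counted the same way, held 9.22% ± 0.278 in VH81X-CBEscr/scr and 10.8% ± 0.653 in WT (exact permutation p = 0.0286), and those under 1.5 Mb held 80.9% ± 0.396 and 77.7% ± 1.73 (exact permutation p = 0.0286). These shares add up to the same total, so that they are not independent of each other.

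**Figure D1:**
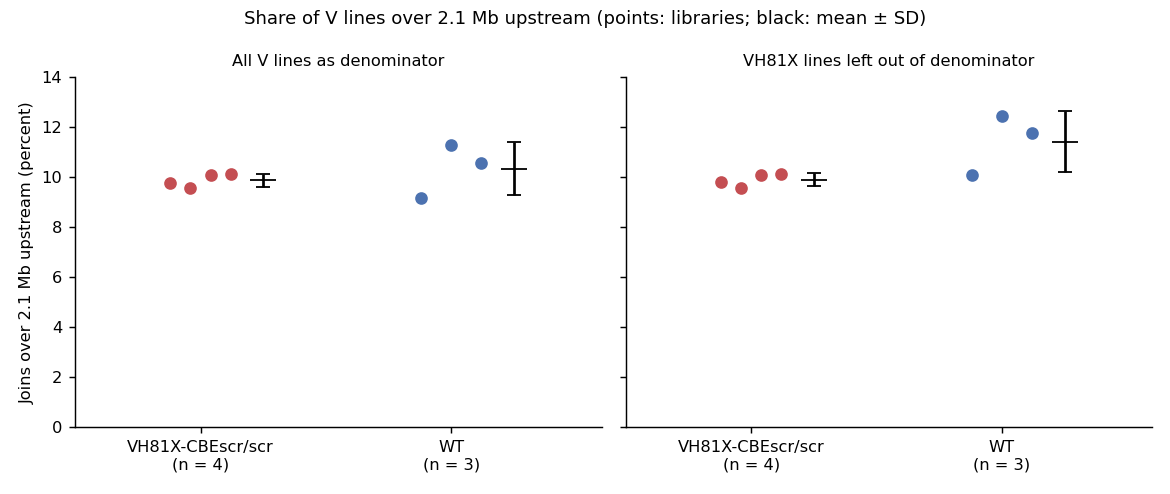
Share of lines over 2.1 Mb upstream of VH81X, in percent of all V lines (left) and of V lines other than VH81X (right), with 1 point per library and the mean ± SD in black. With all V lines the VH81X-CBEscr/scr libraries (9.56% to 10.1%) lie within the WT range (9.18% to 11.3%), and without VH81X they lie at the level of the lowest WT library.

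Use of the 33 segments was uneven. Ranked by lines over all libraries, Ighv1-67, Ighv8-12 and Ighv1-64 together took 41.8% of region lines on average, from 39.0% to 43.3% in single libraries. The first 5 took 56.0% and the first 10 took 75.9%. After these 3 the order was Ighv8-11 (833 lines), Ighv1-76 (518), Ighv1-80 (513), Ighv1-84 (480), Ighv1-77 (328), Ighv1-62-3 (291) and Ighv1-83 (263). The leading 4 segments lie between 2300 and 2440 kb from VH81X, and the next 4 between 2640 and 2773 kb.

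Ighv1-67 took 1.78%, 1.74%, 1.63% and 1.71% of V lines in VH81X-CBEscr/scr 1 to 4, against 1.35%, 1.10% and 1.66% in WT 1 to 3. The mutant libraries were close together, and 3 of the 4 lay above every WT library. Ighv8-12 took 1.34%, 1.46%, 1.49% and 1.45% in VH81X-CBEscr/scr, against 1.21%, 1.86% and 1.5% in WT, with all mutant values inside the WT range. Ighv1-64 took 1.11%, 0.694%, 1.14% and 1.14% in VH81X-CBEscr/scr, against 1.40%, 1.45% and 1.24% in WT, and its groups did not overlap. Ighv8-11 took 0.780%, 0.908%, 0.851% and 0.725% in VH81X-CBEscr/scr, against 0.788%, 1.12% and 1.02% in WT. In order of use, Ighv1-67 stood above Ighv8-12 by more than their spread in VH81X-CBEscr/scr, at 1.72% ± 0.0635 and 1.43% ± 0.0685 (SD, n = 4). In WT they averaged 1.37% ± 0.286 and 1.52% ± 0.327 (SD, n = 3), the other way round and within their spread, and this change of order was not tested. Ighv1-76, Ighv1-80 and Ighv1-84 did not differ beyond their spread, at 0.482% ± 0.0685, 0.538% ± 0.120 and 0.523% ± 0.0548 in VH81X-CBEscr/scr and 0.652% ± 0.227, 0.576% ± 0.185 and 0.498% ± 0.0936 in WT.

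**Figure D2:**
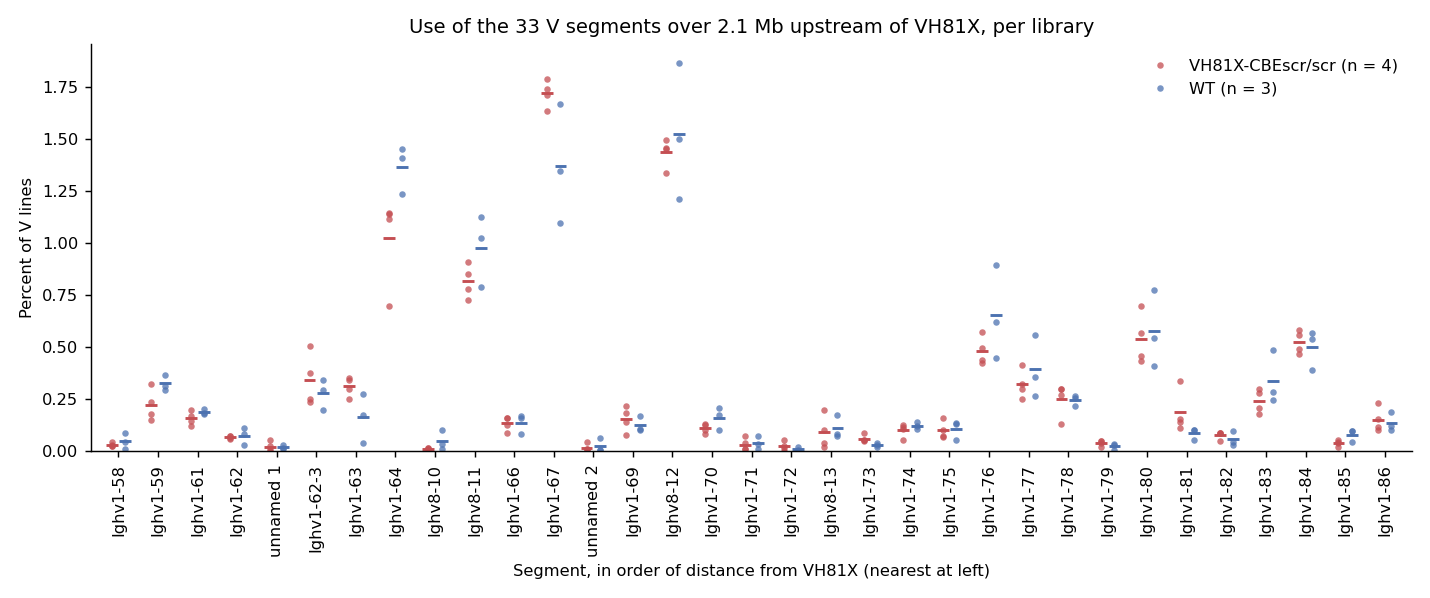
Percent of V lines in each of the 33 segments, in order of distance from VH81X, with 1 point per library and a bar at the group mean (VH81X-CBEscr/scr left of WT at each segment). Ighv1-67, Ighv8-12 and Ighv1-64 reach 1% or more on average in both genotypes, and the means of most other segments stay under 0.5%.

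Per segment, limma-voom compared the genotypes over all 129 V segments with at least 10 lines on average in either group, with V lines as library size. It called 6 of the 129 at an adjusted p under 0.05 (4.65%), VH81X included. Of the 33 distant members 25 could be tested, and 0 were called. Unadjusted p-values under 0.05 were found for 3 of the 25, against 17 of the 129 (13.2%). The 25 tested members had 9 positive and 16 negative log2 fold changes with a median of -0.05, close to the -0.04 over all 129. With library sizes that omit VH81X lines, 3 of 129 were called (2.33%) and 0 of the 25 members, of which 4 had an unadjusted p under 0.05, against 15 of the 129 (11.6%). An exact permutation test per segment called 0 of 129, with 7 unadjusted p-values under 0.05 and 0 of them among members. Its smallest possible p is 0.0286, which adjustment over 129 segments carries past 0.05 unless most segments reach it. It did not call VH81X either, so this count of 0 says nothing about the members.

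Among the 25 tested members the highest log2 fold changes were those of Ighv1-63, Ighv1-81 and Ighv1-82. Of these, Ighv1-82 passed the filter on low counts only through VH81X-CBEscr/scr, where its share is higher. With no filter on low counts the 33 members ran from -1.22 to 1.27, both ends being members too rare for the filtered fit. Ighv1-63 (chr12:117124053-117124077), a VH1 segment, took 0.249%, 0.343%, 0.353% and 0.299% of V lines in VH81X-CBEscr/scr 1 to 4, against 0.273%, 0.0365% and 0.175% in WT 1 to 3. WT 1 lay among the mutant libraries, and WT 2 had only 4 lines there, against 26 to 47 in the other libraries. The log2 fold change was 1.18 (SE 0.394, 95% interval 0.40 to 1.95), with an adjusted p of 0.0532 by limma-voom. WT 2 is also the library with the most repeated reads in the region, and without it the log2 fold change was 0.48 (limma-voom adjusted p = 0.768). In WT 2 the leading type of this segment, type 23, had 0 lines, against 12 to 25 in the other libraries:
type 23 in Ighv1-63: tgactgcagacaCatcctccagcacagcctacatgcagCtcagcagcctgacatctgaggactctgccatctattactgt

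Ighv1-63 was called under 6 of the alternatives listed in the closing section, among them lines not marked as duplicates (log2 fold change 1.02, limma-voom adjusted p = 0.0226, where 4.42% of tested segments were called) and out-of-frame lines (1.95, adjusted p = 0.00352, with 6.12% of tested segments called). Its direction was the same in every setting. Ighv1-81 (chr12:117548711-117548726), also VH1, took 0.141%, 0.111%, 0.153% and 0.337% in VH81X-CBEscr/scr, against 0.101%, 0.0547% and 0.101% in WT. All mutant libraries were above all WT libraries, and VH81X-CBEscr/scr 4 stood highest. Its log2 fold change was 1.01 (SE 0.454, limma-voom adjusted p = 0.273), and without VH81X-CBEscr/scr 4 it was 0.64. Ighv1-82 had a log2 fold change of 0.56 (adjusted p = 0.805), which was 0.11 without WT 3 and 1.08 without WT 1.

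The lowest log2 fold changes among these 25 were those of Ighv1-85, Ighv8-13 and Ighv1-59. Ighv1-85, the segment before the last, averaged 0.0370% ± 0.0143 of V lines in VH81X-CBEscr/scr and 0.0782% ± 0.0282 in WT (SD, n = 4 and 3). Its log2 fold change was -1.06 (SE 0.552, limma-voom adjusted p = 0.390) and it rests on 55 lines. It passed the filter on low counts only through WT, where its share is higher, and it could not be tested without WT 1. Its place as the lowest tested member thus depends in part on the filter. Ighv8-13 and Ighv1-59 had log2 fold changes of -0.59 and -0.57 (limma-voom adjusted p = 0.805 and 0.513). For Ighv8-13 it was -0.083 without VH81X-CBEscr/scr 2, -0.28 without WT 2, -0.35 without VH81X-CBEscr/scr 3 and -1.15 without VH81X-CBEscr/scr 1. Ighv1-64 had a log2 fold change of -0.42 (SE 0.195, 95% interval -0.80 to -0.04, adjusted p = 0.273), and without VH81X-CBEscr/scr 2, its lowest library, it was -0.26. It shrank to -0.047 with lines not marked duplicate, to -0.12 over distinct joins and to -0.13 over out-of-frame lines (limma-voom adjusted p = 0.963, 0.977 and 0.886). The 95% intervals of the 4 most used members stayed within a 2-fold difference between the groups of libraries in either direction. Besides that of Ighv1-64, they ran from -0.03 to 0.68 for Ighv1-67, from -0.39 to 0.32 for Ighv8-12 and from -0.65 to 0.18 for Ighv8-11. Since no run held both genotypes, these intervals do not bound a change by genotype apart from run.

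Shares of V lines did not overlap between the genotypes in 2 of the 25 tested members (8.0%), Ighv1-64 with lower and Ighv1-81 with higher mutant values, and in 10 of all 129 tested segments (7.75%). The member count is thus near the background. On simulated counts with the same means and library sizes the same fit recovered 79.5% of segments changed 2-fold and 99% of those changed 4-fold, at a median of 126.5 segments tested. The changed segments were drawn from the whole V range, with a common spread. Members hold fewer lines than segments under 1.5 Mb (median 137 against 532), and recovery among members alone was not tested.

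**Figure D3:**
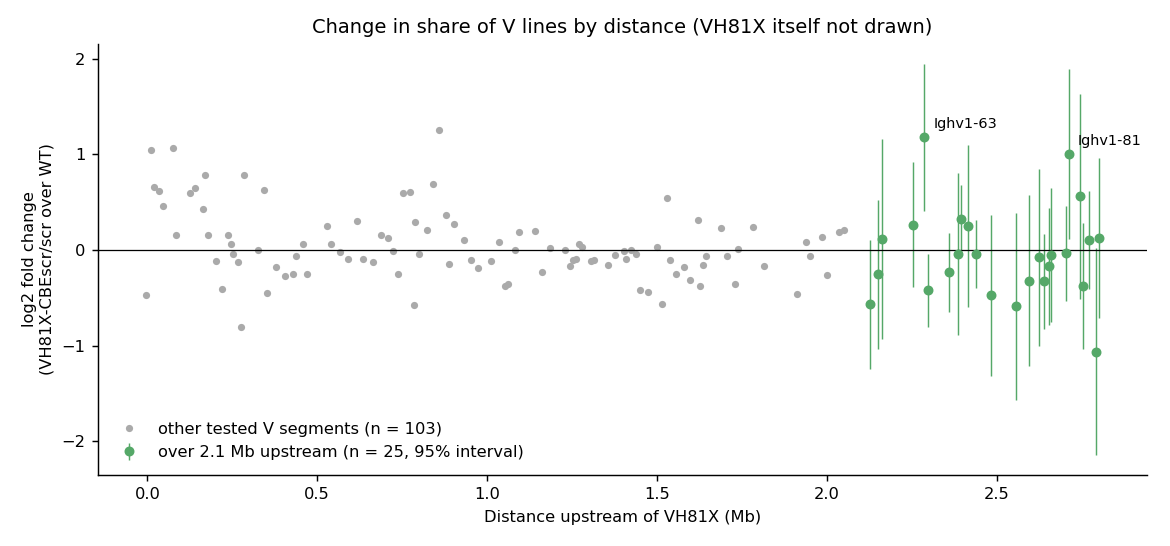
Log2 fold change of the share of V lines, VH81X-CBEscr/scr over WT, against distance upstream of VH81X in Mb, for the tested V segments. Members over 2.1 Mb upstream (green, n = 25, with 95% intervals) lie on both sides of 0 with a median of -0.05, and Ighv1-63 (1.18) and Ighv1-81 (1.01) stand highest.

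The placing of lines along the region was compared in 3 stretches, none of which differed beyond the spread of the libraries. The stretch from 2.1 to 2.4 Mb held 49.8% ± 1.73 of region lines in VH81X-CBEscr/scr and 48.9% ± 4.75 in WT (SD, n = 4 and 3), that from 2.4 to 2.7 Mb held 32.4% ± 2.13 and 34.0% ± 3.6, and that beyond 2.7 Mb held 17.8% ± 1.95 and 17.1% ± 1.16. Exact permutation p-values for the 3 stretches were 0.8, 0.543 and 0.571. The VH8 segments took 24.1% ± 1.00 of region lines in VH81X-CBEscr/scr and 25.7% ± 3.04 in WT (exact permutation p = 0.429). None of the 10 region measures differed between genotypes after adjustment, and the smallest unadjusted p was the 0.0571 given above for the share without VH81X.

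The reading frame and length of the joins were compared next. The frame was called from the cysteine codon of the segment to the tryptophan codon of JH4. In-frame lines made up 63.4%, 70.1%, 67.5% and 69.6% of region lines with a call in VH81X-CBEscr/scr 1 to 4, against 74.4%, 60.1% and 66.4% in WT 1 to 3. The mutant values again lay within the WT range (means 67.7% ± 3.06 and 67.0% ± 7.18, exact permutation p = 0.914). The bases between bait and V end, which hold the D segment and added nucleotides, averaged 17.4 ± 0.0998 in VH81X-CBEscr/scr and 17.4 ± 0.364 in WT (exact permutation p = 0.943). The CDR3 of in-frame lines averaged 12.95 ± 0.124 and 12.90 ± 0.0907 residues (exact permutation p = 0.571).

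Distant lines were more often in frame than the pooled nearer V lines of the same libraries. Over the 7 libraries 67.4% ± 4.69 of lines over 2.1 Mb were in frame, against 59.9% ± 4.95 of lines from 1.5 to 2.1 Mb and 54.9% ± 3.20 of lines under 1.5 Mb without VH81X (SD, n = 7). The share was higher for the distant lines in 7 of 7 libraries in both comparisons, by 7.51 and 12.5 percentage points (exact sign-flip permutation test, p = 0.0156, the smallest 7 libraries can give, or 0.0243 adjusted over 14 such comparisons). The gap to the neighbouring lines was narrow in 1 library, at 0.602 points in WT 2. Among VH81X lines 29.5% ± 12.5 were in frame (SD, n = 7), from only 8 to 46 lines in each VH81X-CBEscr/scr library.

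The gap to lines under 1.5 Mb was uneven along the locus. The 20 segments within 0.3 Mb of VH81X, with 24059 lines, were in frame in 44.8% ± 3.39, a gap of 22.5 points, and the most used of them (8430 lines) in 39.0%. Lines from 0.3 to 0.6 Mb were in frame in 65.2% ± 3.98, and their gap of 2.20 points did not pass the test (distant lines higher in 4 of 7 libraries, exact sign-flip permutation p = 0.234). The gaps to lines from 0.6 to 0.9, 0.9 to 1.2 and 1.2 to 1.5 Mb were 6.92, 5.27 and 11.4 points, with distant lines higher in 7 of 7 libraries (exact sign-flip permutation p = 0.0156, adjusted 0.0195 over the 5 stretches). Of the 90 segments under 1.5 Mb, 11 stood at or above the members' median in-frame share.

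Stop codons were looked for only between the cysteine and tryptophan codons, not in the rest of V or JH. In-frame lines free of stop codons there made up 91.8% ± 1.66 of in-frame lines over 2.1 Mb. They made up 87.6% ± 1.93 from 1.5 to 2.1 Mb and 86.5% ± 1.44 under 1.5 Mb (SD, n = 7). The share over 2.1 Mb was again higher in 7 of 7 libraries (exact sign-flip permutation p = 0.0156, adjusted 0.0243 for each). Counting each distinct join once, the in-frame gaps were 6.73 and 11.8 points, higher in 7 of 7 libraries. With lines not marked as duplicates alone, they were 5.53 points (6 of 7 libraries) and 9.31 points (7 of 7 libraries). Inserts were 0.53 bases longer than in lines under 1.5 Mb (7 of 7 libraries, adjusted exact permutation p = 0.0243), but their gap to the lines from 1.5 to 2.1 Mb, 0.223 bases, did not pass the test (adjusted exact permutation p = 0.237). CDR3 length passed in neither comparison.

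By segment, the in-frame share had a median of 69.1% among members, against 62.8% from 1.5 to 2.1 Mb and 60.7% under 1.5 Mb. Ighv1-70 (77.7% of 121 lines with a call) and Ighv1-85 (77.4% of 53) were highest. The table pseudogene Ighv8-10 (29.2% of 24) and the unnamed segment of 20 lines (35%) were lowest, followed by Ighv8-13 (51.6% of 91) and the table pseudogene Ighv1-62 (55.8% of 52). Ighv1-67 stood at 64.7%, Ighv8-12 at 71.8%, Ighv1-64 at 66.4% and Ighv8-11 at 69.6%. The other unnamed segment had no cysteine codon found and no frame call.

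Within the region, lines pooled over VH8 segments were set against lines pooled over VH1 segments. VH8 lines were in frame in 69.8% ± 4.38 and VH1 lines in 66.6% ± 5.00 (SD, n = 7 libraries), a gap of 3.11 points with VH8 higher in 7 of 7 libraries (exact sign-flip permutation p = 0.0156, adjusted 0.0313 over 2 measures). The insert was shorter for VH8, at 16.7 ± 0.475 against 17.6 ± 0.216 bases, with VH1 longer in 6 of 7 libraries (exact sign-flip permutation p = 0.0313, adjusted 0.0313). Ighv8-12 and Ighv8-11 hold most of the VH8 lines, so the comparison rests mainly on these segments. By segment the order was the other way round: the median in-frame share was 60.6% over the 4 VH8 segments and 69.2% over the VH1 segments.

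The sequence types show how far each segment name stands for 1 gene in these mice. A type could be read for 7644 region lines (80%), and there were 548 types, of which 55 had at least 10 lines and held 92.5% of typed lines. Of these 55, 44 occurred in all 7 libraries, 41 were placed at 2 or more segments and 35 also had lines outside the region. Of 24 members with at least 50 typed lines, 21 held 2 or more types and 19 held 3 or more, counting types that reached 5% in at least 2 libraries, and the largest number was 7. Types with lines also outside the region made up 49.2% of typed region lines, and types placed mostly outside it made up 5.46%.

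Ighv1-62-3, at 97.0% of 263 typed lines, and Ighv1-86, at 86.3%, were each led by 1 type. In contrast, Ighv1-80 held types 5, 18 and 19 at 31.3%, 26.7% and 25.4%, and Ighv1-77 held types 16, 9 and 10 at 33.8%, 31.8% and 22.1%. Type 9 was placed at 12 region segments, led by Ighv1-77 with 95 lines and Ighv1-78 with 41. Several types of the leading segments were placed at a single segment: types 2, 3, 6, 7, 12 and 13, of Ighv1-67, Ighv8-12 and Ighv8-11, were each found at 1 segment of all 158. Type 4 had 409 lines at Ighv1-67 and 2 at Ighv1-86.

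**Figure D4:**
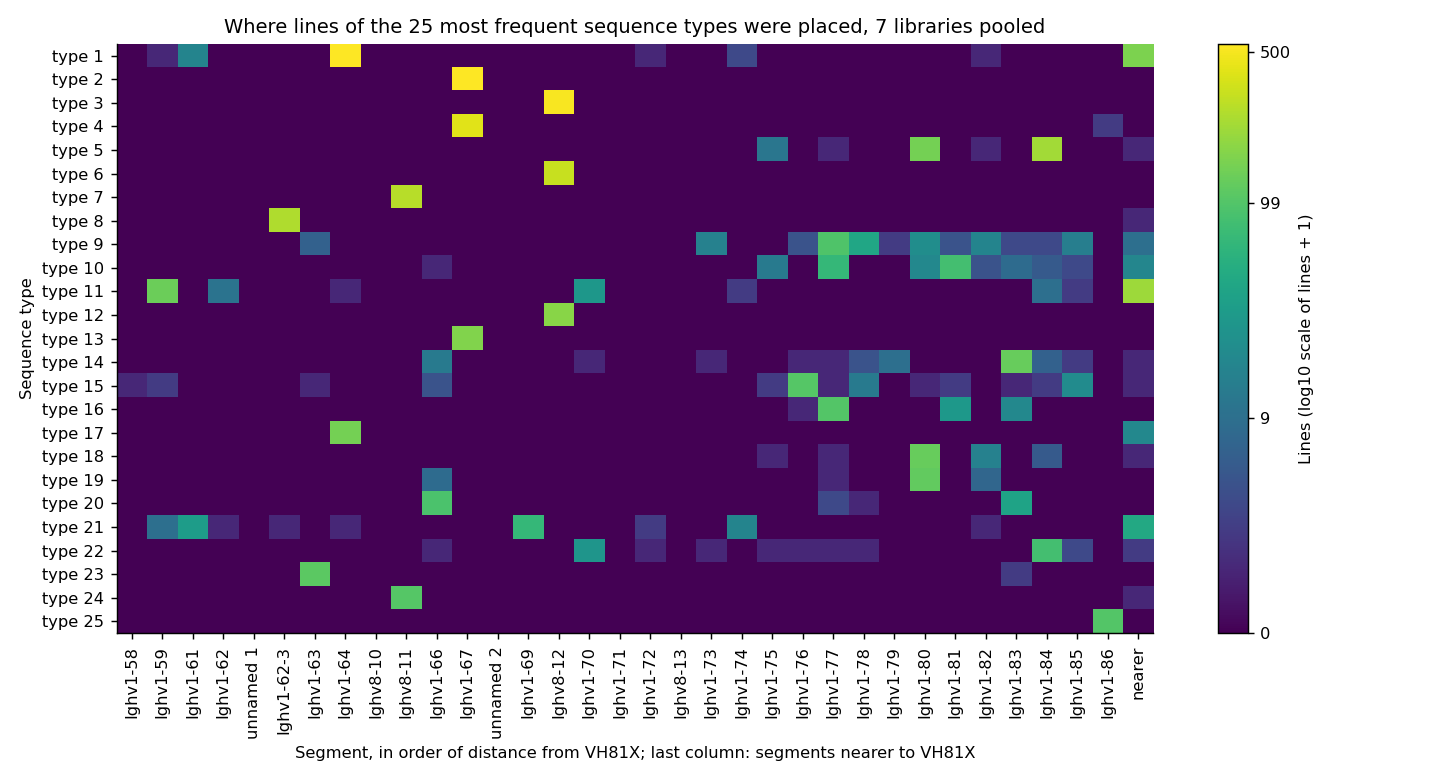
Lines of the 25 most frequent sequence types (rows) at each of the 33 segments (columns, nearest to VH81X at left), 7 libraries pooled, on a log10 scale of lines + 1, with lines at nearer segments in the last column. Types 2, 4 and 13 sit at Ighv1-67 and types 3, 6 and 12 at Ighv8-12, while types 9 and 10 spread over many segments beyond Ighv1-73.

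The genotypes were also compared by counts of sequence types in place of segments. limma-voom tested 126 types and called 4 (3.17%). Of the 34 types of the region that could be tested 0 were called, the smallest adjusted p was 0.277, and 3 had an unadjusted p under 0.05, against 14 of the 126 (11.1%). These were type 20 (log2 fold change -0.99), type 29 (-1.28) and type 2 (0.55). Type 2 made up 44.0% ± 7.08 of typed Ighv1-67 lines in VH81X-CBEscr/scr and 37.3% ± 8.15 in WT (SD, n = 4 and 3). Type 20 was placed mainly at Ighv1-66 and also at Ighv1-83, where it made up 5.00%, 6.45%, 0% and 5.13% of typed lines in VH81X-CBEscr/scr 1 to 4, against 15.6%, 42.9% and 30.3% in WT 1 to 3. The groups did not overlap there. These shares rest on 38 lines, were picked out after their values were seen, and were not tested apart from the fit over types.

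Lines of the region were matched best by their own segment alone less often than nearer lines were. For each line up to 100 prey bases were compared with the consensus of the reads of every V segment. A tie between segments did not count as a best match, so a low share need not mean more mismatches. The own segment matched best, with no tie, in 47.0% ± 4.83 of lines over 2.1 Mb, against 64.5% ± 3.01 from 1.5 to 2.1 Mb and 87.8% ± 1.08 under 1.5 Mb (SD, n = 7). The share was lower in 7 of 7 libraries in both comparisons, with mean differences of -17.5 and -40.9 points (exact sign-flip permutation p = 0.0156, adjusted 0.0243).

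Bases mismatched to the files' reference made up 2.23% ± 0.228 of aligned bases over 2.1 Mb, against 2.15% ± 0.200 from 1.5 to 2.1 Mb and 0.432% ± 0.0815 under 1.5 Mb. The gap to the neighbouring lines did not pass the test (adjusted exact permutation p = 0.199) and that to the lines under 1.5 Mb, 1.80 points, did (adjusted exact permutation p = 0.0243). By segment, 18 of the 33 members were matched best by under 50% of their lines and 8 by at least 90%. Ighv1-67 and Ighv8-12 were matched best by 95.7% and 96.2% of their lines, whereas 92.2% of Ighv1-64 lines tied between segments. Among lines matched best by their own segment the region took a larger share in VH81X-CBEscr/scr than in WT by 0.14 in log2 share (exact permutation p = 0.229), the other direction from that over all lines.

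**Figure D5:**
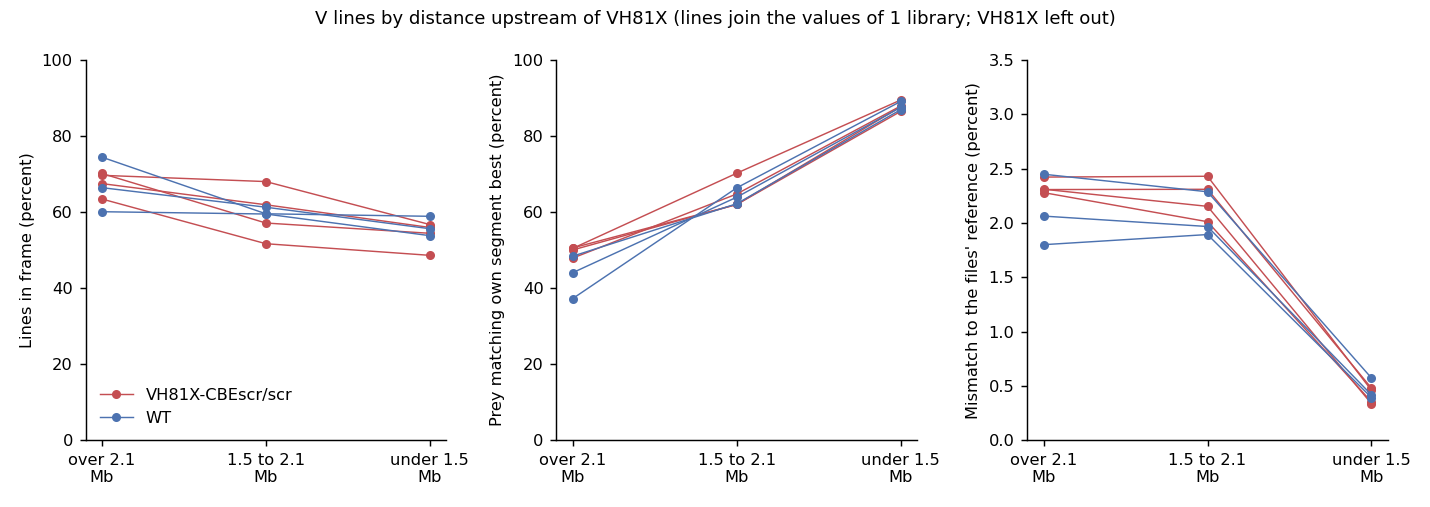
Percent of lines in frame (left), percent of lines whose own segment matches best (middle) and percent of bases mismatched to the files' reference (right) by distance upstream of VH81X, with VH81X left out and the points of 1 library joined. The in-frame share over 2.1 Mb (60.1% to 74.4%) is above that of the other stretches in every library, and the best-match share is lowest there in every library.

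Repeated reads were common, but no single join took up much of the region lines of a library. Lines with the same junction, bait end and insert were counted as 1 distinct join, which left 40.7% of region lines in WT 2 and 58.1% to 78.1% in the other libraries. The most repeated join of a library held at most 1.21% of its region lines, and 2 of 6117 different joins (0.0327%) occurred in more than 1 library. Within less used segments single joins weighed more. In WT 2 the most repeated join held 27.5% of Ighv1-59 lines, 21.3% of Ighv1-77 lines and 20.8% of Ighv1-83 lines. The same measure was 7.35% for Ighv8-12 in WT 2 and 5.91% for Ighv1-67 in VH81X-CBEscr/scr 2. The share of distinct lines in the region was 10.6 points above that of lines under 1.5 Mb (7 of 7 libraries, adjusted exact permutation p = 0.0243) and differed from that of lines from 1.5 to 2.1 Mb by 0.174 points (adjusted exact permutation p = 0.891).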

How the data were processed

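HTGTS junctions of 7 libraries were analysed. Per the file headers and values, each deposited line is 1 read with its position, strand, CIGAR string and sequence, and no deposited column holds a count, ratio or score that was used. Counts were made here by counting lines, so that count models were not applied to deposited counts. The submitters' processing notes name Bowtie2 and the mm9 build; versions and filters are not given in the sources used here. Lines marked as duplicates (71.8% to 84.8% of a library) were kept.

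V segments were positions joined over gaps of at most 300 bp with at least 10 lines. Genotypes were compared per segment with limma-voom (limma 3.58.1, R 4.3.3), with Benjamini-Hochberg adjustment over all tested segments and a threshold of 0.05, and for single measures with two-sided exact permutation tests over libraries (Python 3.11.15, NumPy 2.4.6, pandas 2.3.3). Measures of the region were set against nearer lines of the same library by two-sided exact sign-flip tests over 7 libraries. Prey bases were matched with edlib 1.3.9.post1 by edit distance. Where an alternative left out 1 library, 3 against 3 libraries allow no p under 0.1 and 4 against 2 none under 0.0667. Named segments were the 10 with the highest mean share, those past the threshold, the 3 highest and 3 lowest fold changes, the nearest and farthest members, Ighv1-63, Ighv1-64, VH81X and the first segment outside. The members and lists were chosen with earlier results of these data known. The fit was tested on simulated data (20 draws, 20 changed segments each), where 4.76% of calls fell on unchanged segments. Reads carry no molecular identifiers, so that the floor of 3 counts covers counting error only, while limma intervals rest on the spread among libraries.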

Additional observations from a re-analysis of the deposited data

Results flagged for a closer look

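In groups of 4 libraries, a value was marked where its gap to the nearest other library was over 0.829 of the group's range. The share of V lines was marked in 3 of 43 tested groups, where chance marks about 5%. WT, with 3 libraries, could not be tested this way. Ighv1-64 took 0.694% of V lines in VH81X-CBEscr/scr 2, below the 1.11% to 1.14% of the other 3 mutant libraries, and this library lowers the mutant mean of a segment whose groups did not overlap. Ighv1-73 took 0.0844% in VH81X-CBEscr/scr 3, above the 0.0498% to 0.0514% of the others. Ighv1-82 took 0.0498% in VH81X-CBEscr/scr 1, below the 0.0844% to 0.0891% of the others.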

How the results depend on the processing

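None of the region's measures passed a test between genotypes, and small differences changed sign under some alternatives, the cause of which was not tested. Differences are VH81X-CBEscr/scr minus WT. With lines not marked duplicate, the log2 share of V lines in the region differed by 0.0074, and with lines matching their own segment best by 0.14, against -0.06 in the report. The in-frame share differed by -0.59 points over distinct joins, the stretch beyond 2.7 Mb by -1.29 points over out-of-frame lines, and the insert by 0.27 bases over own-best lines. The stretch from 2.1 to 2.4 Mb differed by -1.24 points without marked duplicates and -0.0487 over distinct joins, and that from 2.4 to 2.7 Mb by 0.54 points without marked duplicates. In-frame lines free of stop codons in the CDR3 differed by 0.52, 0.35 and 0.011 points without marked duplicates, over distinct joins and over own-best lines.

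Leaving out each library in turn gave ranges of -0.14 to 0.0046 (log2 share of V lines), -2.74 to 4.43 points (in frame), -1.77 to 2.91, -3.20 to 0.35 and -0.023 to 1.42 points (the 3 stretches, nearest first), -0.14 to 0.19 bases (insert), -2.91 to 0.059 points (VH8) and -0.93 to 0.70 points (no stop codon). For the share of V lines with VH81X left out the range was -0.29 to -0.14, but the difference was -0.062 with lines not marked duplicate, -0.14 over distinct joins, -0.029 over own-best lines and -0.27 over out-of-frame lines. WT 2 and WT 1 set most of these limits: without WT 2 the share of V lines differed by 0.0046 and the in-frame share by -2.74 points, and without WT 1 they differed by -0.14 and 4.43 points.

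By limma-voom 0 members were called in the report and 1, Ighv1-63, with lines not marked duplicate, with out-of-frame lines, with median-of-ratios size factors (log2 fold change 1.19, adjusted p = 0.0410), and with the sequencing run as a random block (1.26, adjusted p = 0.00929, estimated correlation -0.183). No run held both genotypes, so the run block cannot separate run from genotype. Ighv1-63 was also called without WT 1 (1.73, adjusted p = 0.0387) and without VH81X-CBEscr/scr 1 (1.26, adjusted p = 0.0454), so leaving out a library gave 0 to 1 called members. Over the 20 settings its adjusted p ran from 0.00352 to 0.768. Over all tested segments the count of calls was 5 without marked duplicates (4.42%) and 6 with out-of-frame lines (6.12%). It was 7 of 129 with median-of-ratios size factors and 8 of 129 with the run block. It was 6 without WT 1 and 9 without VH81X-CBEscr/scr 1. In the same order, the members tested in these settings were 20, 13, 25, 25, 23 and 25. Calls over all segments were 3 with VH81X left out and 2 with limma on log2(percent + 0.01), against 6 in the report. Exact permutation per segment gave 0 (7 at an unadjusted p under 0.05). With no p under 0.0286 it could hardly call any segment after adjustment.

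Small fold changes of the leading members changed sign as follows. Ighv8-12 had 0.031, 0.015, 0.019 and 0.12 without marked duplicates, over distinct joins, over own-best lines and over out-of-frame lines. Without marked duplicates Ighv8-11 had 0.010, Ighv1-76 0.13, Ighv1-80 0.029, Ighv1-77 0.086 and Ighv1-62-3 -0.17. Over distinct joins Ighv1-80 had 0.091 and Ighv1-77 0.11, and over own-best lines Ighv8-11 had 0.072. Ighv1-84 had -0.036 with VH81X left out and -0.25 over out-of-frame lines, and Ighv1-86 had -0.016 with VH81X left out. Leaving out each library gave -0.20 to 0.10 (Ighv8-12), -0.43 to 0.054 (Ighv1-77), -0.29 to 0.16 (Ighv1-80), -0.090 to 0.19 (Ighv1-84), -0.014 to 0.45 (Ighv1-62-3) and -0.13 to 0.37 (Ighv1-86).

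Replicate numbers are shared by the genotypes but did not pair the libraries, since deviations of same-numbered libraries correlated at -0.274, -0.0027 and 0.109. With the replicate block (replicates 1 to 3) 2 of 127 segments and 0 members were called, against 5 and 0 with no replicate block on the same libraries. Ighv1-80 had 0.0047 with the block and 0.060 without it, and Ighv1-86 -0.12 and -0.13, both the opposite direction from the report. The fits of sequence types and of replicates 1 to 3 with no block, all alternatives of the share with VH81X left out, the alternatives of the VH8, stop codon and CDR3 measures and of the 2 nearer stretches, and the repeats and stretches of the in-frame gap to nearer lines were chosen after seeing the data. Few lines limit 8 of the 33 members, which were too rare to test.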
